A study of Mus musculus with 2 samples.

Results

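The BBSome genes were followed through single cells of gastruloids, mouse embryonic stem cell aggregates that start to lay down a body axis in culture. The 10 members were chosen by gene symbol: Bbs1, Bbs2, Bbs4, Bbs5, Bbs7, Bbs9, Ttc8, Bbip1, Arl6 and Lztfl1. They are 10 of the 32285 genes counted, and each had 1 row in the deposited files. About 300 embryonic stem cells of the R1 line, either wild type or carrying a double knockout of Sp5 and Sp8 (Sp5/8 dko), were aggregated in serum-free N2B27 medium. Both kinds of aggregate received 3 µM CHIR, which switches on Wnt signalling by blocking GSK3, for 12 hours from day 2. They were pooled and dissociated at day 2.5. The libraries are called WT-labelled and dko-labelled below, after their labels. Each genotype has 1 library, so every difference is one between 2 libraries with no replicate check and no test. Whether the mutant line is 1 clone is not given in the sources used here. Intervals are 95% intervals that cover counting error only, not the variation between cultures.

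The BBSome is a coat-like protein complex that carries membrane proteins along and out of the primary cilium, the single antenna-like organelle on which Hedgehog and other signals are received. It is brought to membranes by the small GTPase encoded by Arl6, and its entry into the cilium is restrained by the protein of Lztfl1. Loss of BBSome genes in people causes Bardet-Biedl syndrome, and cilia are present on epiblast cells of the mouse embryo, the tissue that gastruloids resemble. The series title names primary cilia as an outcome of Sp5 and Sp8, which is the question these genes bear on.

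Both targeted genes were higher in the dko-labelled library, the reverse of what a loss of their transcripts would give. Sp5 stood at 109.1 CPM (UMIs scaled to the library total; a UMI tags 1 captured RNA molecule) in the WT-labelled library and at 478.7 CPM in the dko-labelled library, a log2 ratio of 2.13 (2.10 to 2.16). Sp8 stood at 20.8 and 40.1 CPM, a log2 ratio of 0.95 (0.87 to 1.03). The edited sites are not given in the sources used here, so 3′ tags may also come from an edited allele. Directions below therefore compare the labelled libraries and are not read as effects of losing either gene. Cells were barcodes with at least 2500 UMIs, at least 1000 genes and at most 10% mitochondrial UMIs. That left 8707 cells with 97157331 UMIs (median 10571 per cell) in the WT-labelled library and 10587 cells with 97644169 UMIs (median 8637) in the dko-labelled library. The labels' protocols state 9238 and 11190 cells with medians of 5333 and 5398 genes; here 8772 and 10613 barcodes had 2500 UMIs or more, and cells had medians of 3275 and 2884 genes. The libraries shared 27 cell barcodes. Primed epiblast markers summed to 1215 and 1355 CPM and naive markers to 68.8 and 55.5 CPM. Of the 6 primed genes, 5 were higher in the dko-labelled library and Pou3f1 was lower, at 83.4 and 75.2 CPM. The naive genes were mixed. Of 6 at a mean of 1 CPM or more, 3 were lower and 3 higher, with Klf2 at 32.2 and 18.6 CPM. Genes of multiciliated cells, which would bring their own ciliary transcripts, summed to 5.04 and 3.89 CPM over 6 genes, with Foxj1 at 99 and 81 UMIs; their part in the member values was not tested.

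The promoters of the members are shown because Sp factors bind GC boxes, and the X-box is the motif of the RFX factors that control ciliary genes. RefSeq windows on GRCm38.p6, from 250 bases before to 50 after the transcription start, were found for 10 of 10 members, with 11 windows in all since Arl6 has 2 starts. The GC box was searched as GGGCGG and the X-box core as GTTGCC, each on both strands. The X-box was searched by its degenerate consensus, which allows the core but does not require it. A GC box was found in 6 of 10 members, against 35.7% of all 32851 windows, and 4 members held at least 2, against 19.5% of windows. An X-box was found in 2 of 10 members, Bbs1 and Lztfl1, against 1.53% of windows. Cores were found in 4 of 10 members, against 12.5% of windows. The member counts are per gene and the shares per window, so the units differ. Counted by window, 7 of the 11 member windows held a GC box, 2 an X-box and 4 a core. The member windows differ in base composition, from 50.3% G and C in Bbs1 to 70.7% in Bbip1, where the median of all windows is 52.7%. Letters that match are a description of these windows and not a sign of binding. The upstream parts of 5 windows follow: the 3 most abundant members, then the 2 with the lowest library ratios. Capitals mark GC boxes, X-boxes and X-box cores.
Arl6, chr16:59639410-59639659, minus strand: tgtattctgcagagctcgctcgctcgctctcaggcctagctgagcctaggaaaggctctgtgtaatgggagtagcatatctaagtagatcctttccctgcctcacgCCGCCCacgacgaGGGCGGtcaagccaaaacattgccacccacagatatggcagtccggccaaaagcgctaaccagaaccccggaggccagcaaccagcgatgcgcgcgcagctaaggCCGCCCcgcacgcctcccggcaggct
Bbip1, chr19:53944628-53944877, minus strand: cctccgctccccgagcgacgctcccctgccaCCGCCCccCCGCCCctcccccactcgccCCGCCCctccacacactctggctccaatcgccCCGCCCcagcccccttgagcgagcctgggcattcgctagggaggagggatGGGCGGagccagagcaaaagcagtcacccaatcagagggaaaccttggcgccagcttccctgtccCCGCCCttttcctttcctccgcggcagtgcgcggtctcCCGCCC
Lztfl1, chr9:123717626-123717875, minus strand: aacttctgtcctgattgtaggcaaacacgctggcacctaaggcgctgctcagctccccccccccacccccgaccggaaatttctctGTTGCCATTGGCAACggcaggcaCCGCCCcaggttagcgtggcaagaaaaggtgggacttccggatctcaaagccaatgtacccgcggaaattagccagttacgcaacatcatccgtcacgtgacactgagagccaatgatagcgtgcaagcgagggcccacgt
Ttc8, chr12:98920324-98920573, plus strand: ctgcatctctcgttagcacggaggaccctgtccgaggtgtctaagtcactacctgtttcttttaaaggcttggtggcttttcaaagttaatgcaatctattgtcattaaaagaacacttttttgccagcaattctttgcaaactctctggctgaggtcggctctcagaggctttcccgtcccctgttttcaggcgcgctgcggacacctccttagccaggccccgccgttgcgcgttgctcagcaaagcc
Bbs7, chr3:36613390-36613639, minus strand: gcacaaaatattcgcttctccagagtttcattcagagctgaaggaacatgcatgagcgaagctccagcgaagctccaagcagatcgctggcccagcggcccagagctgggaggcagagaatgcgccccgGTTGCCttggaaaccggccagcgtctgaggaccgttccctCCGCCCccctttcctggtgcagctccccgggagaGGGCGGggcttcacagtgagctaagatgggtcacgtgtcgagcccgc
The Bbip1 window held 7 GC boxes and the Arl6 window 3, while the upstream part of Ttc8 held no match to any of these motifs and its 1 GC box starts at base 30 after the transcription start. Lztfl1 carries a whole X-box that starts 164 bases before the transcription start. That of Bbs1 starts at base 2 after it, at chr19:4906613-4906626 on the minus strand.
Bbs1 X-box: GTTGCCAAGGCGAC
Bbs2 and Bbs4 had none of the 3 motifs in their windows.

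**Figure D1:**
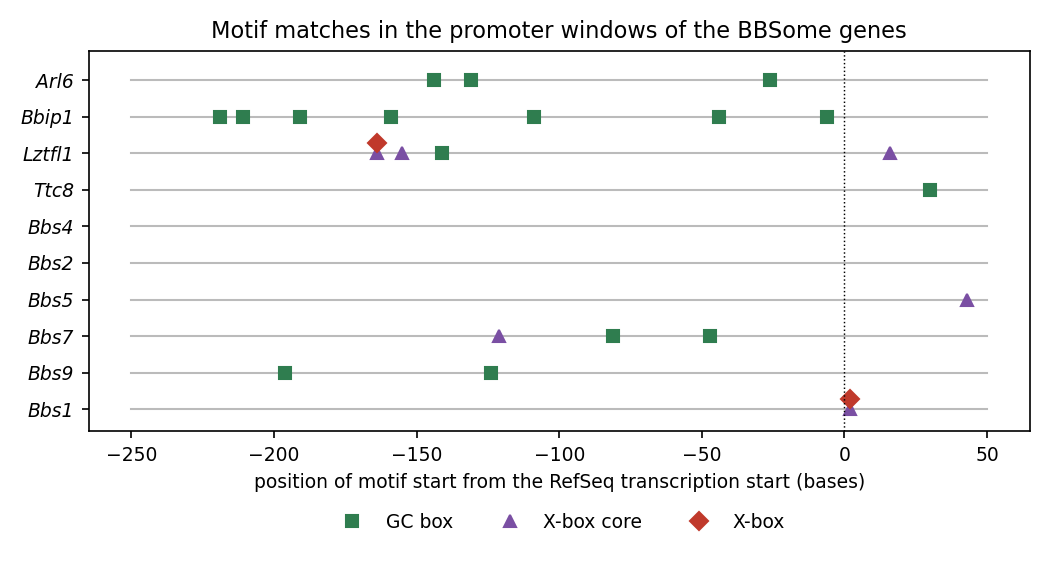
Positions of motif matches in the promoter window of each BBSome gene (1 window per gene, the upstream one for Arl6), in bases from the RefSeq transcription start, with genes ordered by level from top to bottom. GC boxes gather in Bbip1, with 7, and the 2 X-boxes lie in Lztfl1 and Bbs1.

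The members formed 2 levels. A 3′ library counts about 1 tag per captured molecule whatever the transcript's length, so CPM values of different genes were set side by side without division by length, although capture can differ between genes. Arl6 was highest, at 46.8 CPM (45.4 to 48.2) in the WT-labelled library and 41.5 CPM (40.2 to 42.8) in the dko-labelled library. Bbip1, which encodes the smallest subunit, followed at 41.3 CPM (40.1 to 42.6) and 36.5 CPM (35.3 to 37.7). Lztfl1 came next at 27.6 CPM (26.6 to 28.7) and 24.2 CPM (23.2 to 25.2). These 3 genes held 73.2% and 73.3% of all member UMIs. The other 7 members reached at most 8.31 CPM in the WT-labelled library and 7.33 CPM in the dko-labelled library. Within them the intervals of Ttc8, Bbs4, Bbs2, Bbs5 and Bbs7 overlapped from each to the next in both libraries, with Ttc8 above Bbs4 only in the WT-labelled library. Bbs9 and Bbs1 were lowest, with overlapping intervals, and stood apart from Bbs7 above them.

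**Figure D2:**
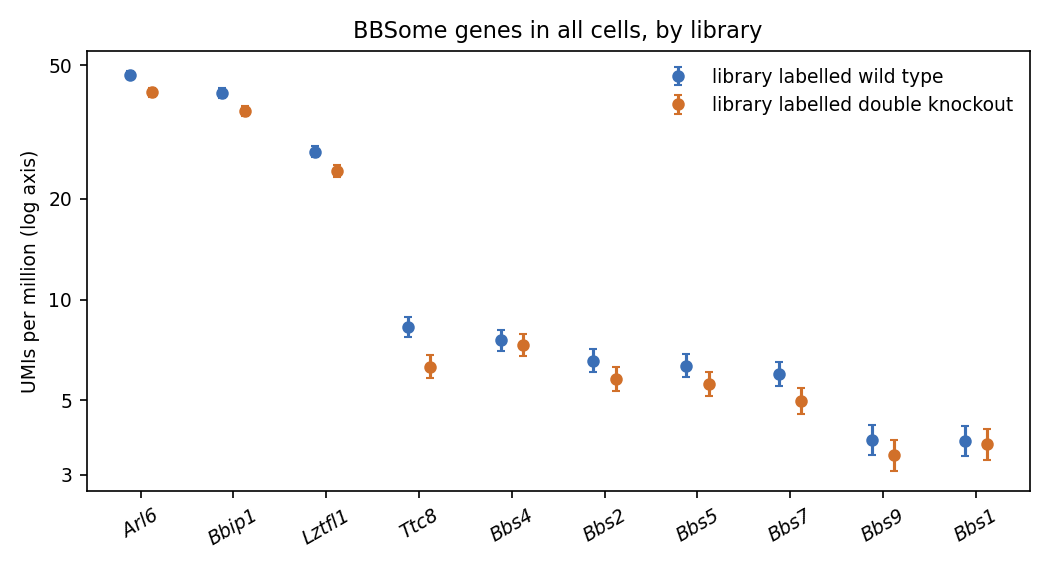
UMIs scaled to CPM of each BBSome gene in all cells, on a log axis, in the WT-labelled library (blue) and the dko-labelled library (orange), with exact Poisson 95% intervals. Arl6, Bbip1 and Lztfl1 stand above the other 7 genes in both libraries, and each gene's orange point is below its blue one.

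Between the libraries, the summed members stood at 158.2 CPM (155.7 to 160.7; 15369 UMIs) in the WT-labelled library and 139.3 CPM (137.0 to 141.7; 13601 UMIs) in the dko-labelled library. The 2 intervals do not overlap. The log2 ratio of the sums was -0.18 (-0.22 to -0.15), or 0.881-fold. All 10 members were lower in the dko-labelled library, where 56.8% of the 12406 genes at a mean of 1 CPM or more were lower. With equal weights of 8 depth bins, an alternative added after seeing the data, 8 of 10 were lower, with Bbs1 at 0.009 and Bbs4 at 0.015. The median member ratio was -0.18, against -0.03 for all genes, whose SD was 0.19. A call was set at a log2 ratio of 0.25 or more in size: 2 of 10 members passed it downward, against 8.54% of genes, and 0 upward, against 5.42%. At a mean of 10 CPM or more, 3 of 3 members were lower against 57.1% of 7607 genes, and 0 passed the call in either direction against 4.59% downward and 3.09% upward. For 7 of 10 members the counting interval lay below 0, against 30.4% of genes. With TMM scaling, or with cells low in chromosome 6 or 11 UMIs left out, that held for 5 members, since the intervals of Bbs2 and Bbs5 then held 0. The share of all genes was not computed for these settings. All single ratios are of CPM + 0.1, in log2.

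Among the core subunits, Ttc8 had the lowest ratio. Its protein, also called BBS8, is made of tetratricopeptide repeats. It had 807 UMIs, 8.31 CPM (7.74 to 8.90), in the WT-labelled library and 616 UMIs, 6.31 CPM (5.82 to 6.83), in the dko-labelled library, so the intervals do not overlap. The log2 ratio was -0.39 (-0.55 to -0.24), or 23.8% lower. Ttc8 lies on chromosome 12 (98920574 to 98983238, plus strand; GENCODE M21, GRCm38), and no annotated gene overlaps it. The 445 genes tested on chromosome 12 had a median log2 ratio of -0.06.

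Bbs4 encodes the other tetratricopeptide subunit. It had 735 and 716 UMIs, 7.57 and 7.33 CPM, with a log2 ratio of -0.04 (-0.20 to 0.11). A difference in Bbs4 was thus not detectable at this depth. Whether counting used strand is not given in the sources used here, and Adpgk on the other strand overlaps the last 2063 bases of Bbs4. Adpgk had 25.9 and 24.1 CPM, so without strand its reads could not be told from those of Bbs4.

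The propeller subunits spread over the same range. Bbs7 had 584 UMIs, 6.01 CPM, in the WT-labelled library and 488 UMIs, 5.00 CPM, in the dko-labelled library, with a log2 ratio of -0.26 (-0.44 to -0.09). It no longer passed the call with TMM scaling (-0.23), a pseudocount of 1 CPM (-0.23) or equal weights of cell groups (-0.23). Bbs2, which pairs with Bbs7 in the core of the complex, stood at 6.58 and 5.79 CPM, a log2 ratio of -0.18 (-0.35 to -0.02). Bbs9, a scaffold subunit, had 370 and 335 UMIs and a log2 ratio of -0.15 (-0.37 to 0.07). Bbs1, the subunit that binds Arl6, had 369 and 361 UMIs and a log2 ratio of -0.04 (-0.25 to 0.17). The intervals of Bbs9 and Bbs1 hold 0, so for these a difference was not detectable at this depth. Bbs5, whose protein binds phospholipids, stood at 6.35 and 5.60 CPM with a log2 ratio of -0.18 (-0.35 to -0.01). On GRCm38 these genes lie at chr3:36573142-36613477 (Bbs7), chr8:94067954-94098928 (Bbs2), chr9:22475715-22888280 (Bbs9), chr19:4886878-4906628 (Bbs1) and chr2:69647171-69667571 (Bbs5), with Bbs4 at chr9:59321990-59353508, and all are annotated as protein-coding.

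The abundant members had nearly the same ratio. Bbip1 had 4017 and 3561 UMIs and a log2 ratio of -0.18 (-0.25 to -0.12). For Arl6 these were 4545 and 4052 UMIs and -0.17 (-0.23 to -0.11). Lztfl1 had 2686 and 2360 UMIs and a log2 ratio of -0.19 (-0.27 to -0.11). None of the 3 passed the call, and their ratios differ by less than the width of any of their intervals. Bbip1 lies on the minus strand of chromosome 19 (53929861 to 53944627) and shares its first 322 bases with Shoc2 on the other strand, far from its 3′ end. Arl6 lies on the minus strand of chromosome 16 (59612949 to 59639391), and Lztfl1 on the minus strand of chromosome 9 (123694416 to 123717697). The genes opposite these 2 had at most 10 UMIs in a library. The 7 other members summed gave a log2 ratio of -0.19, an alternative added after seeing the data, so the ratio was as large without the 3 abundant genes.

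The libraries differ in the makeup of their cells, so the members were compared within cells that held a UMI of T, Eomes or Irx3. T and Eomes encode T-box factors of the primitive streak, and Irx3 a homeobox factor expressed in neural progenitors. T positive cells numbered 2267 (26.0%) in the WT-labelled library and 3100 (29.3%) in the dko-labelled library, Eomes positive cells 3780 (43.4%) and 6547 (61.8%), and Irx3 positive cells 1346 (15.5%) and 657 (6.21%). The classes overlap: 64.6% and 79.1% of T positive cells were also Eomes positive. Of Irx3 positive cells, 31.7% and 47.3% were also Eomes positive, and 17.8% and 18.3% T positive. The Irx3 class is thus not a separate neural group. A class defined by 1 UMI holds deeper cells and misses cells in which the gene was not captured.

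The summed members were lower in the dko-labelled library in each class. In T positive cells they stood at 153.0 CPM (148.6 to 157.6) and 139.9 CPM (135.9 to 144.1), with a log2 ratio of -0.13 (-0.19 to -0.07). In Eomes positive cells the values were 153.2 CPM (149.7 to 156.7) and 138.2 CPM (135.4 to 141.1), a log2 ratio of -0.15 (-0.19 to -0.10). Irx3 positive cells had 163.9 CPM (157.8 to 170.2) and 147.8 CPM (138.7 to 157.4), a log2 ratio of -0.15 (-0.26 to -0.04). The Irx3 interval held 0 with a mitochondrial limit of 5% (-0.22 to 0.01) and with at least 2 Irx3 UMIs (-0.42 to 0.08). The 3 ratios lie within each other's intervals, and whether they differ was not tested. Cells with no UMI of the 3 genes, 3300 and 3081 of them, had 161.8 and 142.0 CPM, a log2 ratio of -0.19 (-0.25 to -0.12). The classes share cells. Summed without Arl6 and Lztfl1, the 8 core subunits were at -0.15 (-0.23 to -0.07) in T positive and -0.14 (-0.20 to -0.07) in Eomes positive cells. In Irx3 positive cells they were at -0.14 (-0.28 to 0.01), an interval that holds 0. Member levels in Irx3 positive cells were above those in T or Eomes positive cells in the WT-labelled library, with intervals that do not overlap, and the intervals overlapped in the dko-labelled library.

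Gene by gene, Ttc8 was lower in all 4 cell groups. These groups are parts of the cells in which Ttc8 was found lowest, so the repeats are not separate checks. In T positive cells it had 241 and 192 UMIs, 8.31 and 5.92 CPM, with a log2 ratio of -0.48 (-0.77 to -0.21). In Eomes positive cells it stood at 7.77 and 6.16 CPM, a log2 ratio of -0.33 (-0.54 to -0.13). In Irx3 positive cells it had 148 and 37 UMIs, 8.99 and 5.60 CPM, and its log2 ratio of -0.67 (-1.24 to -0.16) was the lowest of any member in any class. Ttc8 was the 1 of 10 members whose counting interval lay below 0 in Irx3 positive cells, where counts are smallest, against 8.77% of genes; that share is near the background.

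The other members were less even. Bbs7 was at -0.12 in T positive, -0.31 in Eomes positive and -0.31 in Irx3 positive cells. Bbs1 had 96 and 129 UMIs in T positive cells and a log2 ratio of 0.26 (-0.13 to 0.66), past the call upward but with an interval that holds 0. Bbs4 was at 0.07 (-0.14 to 0.28) in Eomes positive cells and Bbs2 at 0.11 (-0.41 to 0.62) in Irx3 positive cells. Bbip1, Arl6, Lztfl1, Bbs5, Bbs7 and Ttc8 were below 0 in each of the 4 cell groups. Past the call downward were 1 of 10 members in T positive cells, against 11.7% of all genes there, 3 in Eomes positive cells (Bbs5, Bbs7 and Ttc8), against 8.41%, and 2 in Irx3 positive cells (Bbs7 and Ttc8), against 15% of genes. In cells with none of the 3 genes, 3 members (Bbs7, Bbs9 and Ttc8) passed it, against 12.2%. Upward, Bbs1 in T positive cells was the 1 member past it, against 8.27% of genes in T positive, 5.62% in Eomes positive, 13.8% in Irx3 positive and 8.47% in the remaining cells. Lower without regard to size were 9, 8, 8 and 9 members in these groups, against 54.7%, 55.8%, 51.6% and 56.5% of genes. Markers differed between the libraries inside the classes too. In T positive cells primitive streak markers, a list that holds the class gene T and also Eomes, summed to 537.7 and 766.4 CPM. Of these 8 genes, 6 were higher in the dko-labelled library and 2 lower, both past the call, the lowest at -2.79. Neural markers summed to 151.4 and 81.8 CPM in T positive cells, with 4 of the 4 genes at a mean of 1 CPM or more lower. The stress genes Ddit3, Pmaip1, Trib3, Chac1 and Atf3 summed to 50.6 and 67.3 CPM in T positive, 48.0 and 63.4 CPM in Eomes positive and 32.1 and 48.7 CPM in Irx3 positive cells. Of the 5 stress genes, 4, 5 and 4 were higher in the dko-labelled library in these classes, and 1, 0 and 1 lower. What part any of these markers have in the member ratios was not tested.

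**Figure D3:**
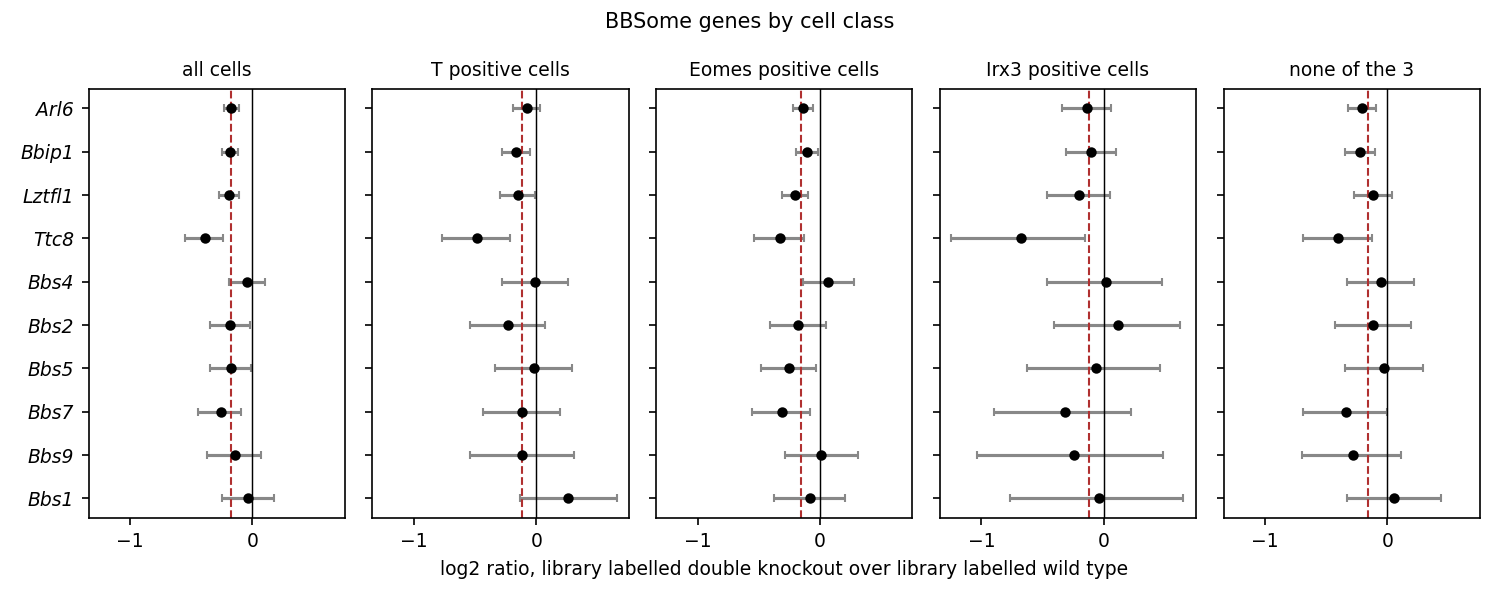
Log2 ratio of each BBSome gene, dko-labelled over WT-labelled library, in all cells and in 4 cell groups, with exact 95% counting intervals; the dashed line is the median of the 10 genes and the solid line is 0. The medians are -0.18, -0.12, -0.16, -0.12 and -0.16 from left to right, and Ttc8 lies lowest in each of the 5 panels.

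Primary cilia are taken down before cells divide, so the members were compared by the share of a cell's UMIs that came from 53 mitotic genes. Cells of both libraries were divided together into 4 bins at the quartiles, with median shares of 0.338% and 0.340% in the lowest and 0.924% and 0.899% in the highest. Member levels were higher in cells rich in mitotic transcripts. In the WT-labelled library the summed members stood at 149.05, 154.6, 157.9 and 167.5 CPM from the lowest bin to the highest. The corresponding values in the dko-labelled library were 136.2, 135.5, 138.6 and 145.7 CPM. The highest bin exceeded the lowest by a log2 ratio of 0.17 (0.10 to 0.23) in the first and 0.10 (0.03 to 0.17) in the second, against medians of 0.03 and 0.04 for all genes. The interval of the second held 0 (-0.01 to 0.15) when cells low in chromosome 6 or 11 UMIs were left out. All 10 members were higher in the highest bin in the WT-labelled library, against 56.1% of genes, and 9 of 10 in the dko-labelled library, against 56.7%. Lower were 0 members against 43.9% of genes, and 1 (Bbs2, at -0.05) against 43.3%.

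Single subunits carried different parts of this. Ttc8 went from 7.15 to 8.99 CPM in the WT-labelled library and from 5.32 to 7.28 CPM in the dko-labelled library, with log2 ratios of 0.33 (0.03 to 0.63) and 0.44 (0.11 to 0.80). Bbs5 went from 5.78 to 7.06 CPM and from 4.31 to 6.53 CPM, with log2 ratios of 0.28 (-0.05 to 0.63) and 0.59 (0.22 to 0.98). Bbs1 was at 0.43 (0.01 to 0.88) and 0.41 (-0.01 to 0.86). Bbs4 was at 0.48 (0.17 to 0.81) in the WT-labelled library and at 0.07 (-0.24 to 0.39) in the dko-labelled library, and whether these differ was not tested. Arl6 went from 46.6 to 49.1 CPM and from 41.5 to 41.7 CPM, with log2 ratios of 0.07 (-0.05 to 0.19) and 0.01 (-0.12 to 0.14). Bbip1 was at 0.16 (0.04 to 0.29) and 0.05 (-0.09 to 0.19), and Lztfl1 at 0.14 (-0.02 to 0.31) and 0.09 (-0.08 to 0.26). The abundant members were thus near the median of all genes, 0.04, in the dko-labelled library. The intervals of Bbs2, Bbs7 and Bbs9 held 0 in both libraries. Past a log2 ratio of 0.25 upward were 4 members in the first library, against 18.6% of genes, and 3 in the second, against 19.8%; downward there were 0 members in both, against 12.5% and 11.7%. Cells of the highest bin were also deeper, with medians of 12948 and 10440 UMIs against 9200 and 7664 in the lowest.

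The library difference was present in each bin. The log2 ratio of the sums was -0.13 (-0.20 to -0.06) in the lowest bin, -0.19 in both middle bins, and -0.20 (-0.26 to -0.14) in the highest. These intervals overlap. Members past the call downward numbered 3, 3, 3 and 4 from the lowest bin to the highest, against 14.7%, 12.3%, 12.2% and 11.8% of genes. Upward there were 0 members in each, against 9.28%, 10.1%, 9.25% and 7.97%. Lower without regard to size were 8, 9, 8 and 9 members, against 56.6%, 54.1%, 55% and 56% of genes. Ttc8 passed the call in every bin, at -0.42, -0.53, -0.33 and -0.30. The bins divide the same cells in which Ttc8 was found lowest, so these values are not separate checks. By depth, in 8 bins of UMIs per cell, the summed members were lower in the dko-labelled library in each bin, with no steady order across bins: 167.2 CPM in the shallowest and 159.5 CPM in the deepest bin of the WT-labelled library, and 145.3 and 137.0 CPM in those of the dko-labelled library.

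**Figure D4:**
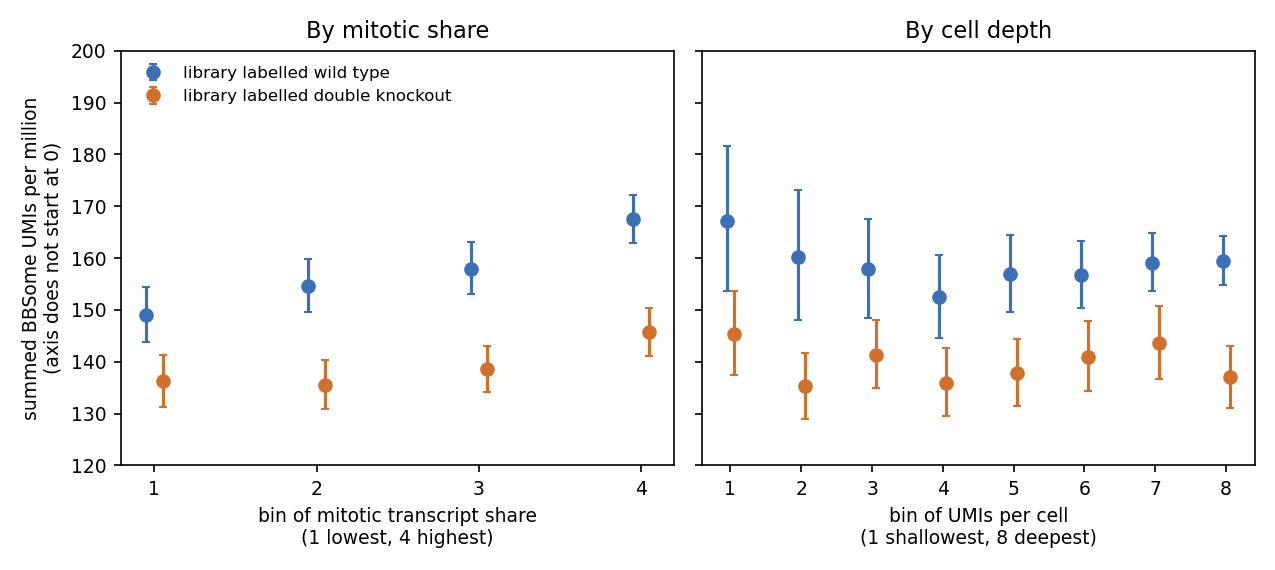
Summed CPM of the 10 BBSome genes by bin of mitotic transcript share (left) and by bin of UMIs per cell (right) in both libraries, with exact Poisson 95% intervals and an axis that does not start at 0. The blue points (wild type label) lie above the orange ones (double knockout label) in all 4 mitotic bins and all 8 depth bins, and the highest mitotic bin reaches 167.5 and 145.7 CPM.

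In single cells the members were sparse. After each cell was thinned to 2500 UMIs, 33.3% of cells (32.3 to 34.3) in the WT-labelled library and 28.6% (27.8 to 29.5) in the dko-labelled library held a UMI of any member (exact Clopper-Pearson intervals). Without thinning the shares were 79.0% and 69.4%, and deeper cells show more genes. Thinned shares for Arl6 were 10.8% (10.2 to 11.5) and 9.75% (9.19 to 10.3), and for Bbip1 10.7% (10.0 to 11.3) and 8.43% (7.91 to 8.98). Ttc8 was seen in 2.26% (1.96 to 2.60) and 1.45% (1.23 to 1.69) of thinned cells. For Bbs1 the shares were 0.747% (0.577 to 0.951) and 0.869% (0.701 to 1.06). UMIs of 2 or more members met in 5.39% and 4.14% of thinned cells and in 43.8% and 30.7% of cells without thinning. No cell type known to lack the BBSome was at hand as a background for these shares.

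Genes around the BBSome were taken from lists. The chaperonin list holds Mkks, Bbs10 and Bbs12, which help the complex assemble, and 6 subunits of the general CCT chaperonin. Its median log2 ratio was -0.04, with 6 of 9 genes lower, against 56.8% of all genes. Among the CCT subunits Tcp1 was at 0.08, Cct3 at 0.08 and Cct2 at -0.04. Mkks, Bbs10 and Bbs12, named here after their values were seen, were at -0.20 (-0.33 to -0.07), -0.12 (-0.37 to 0.12) and -0.41 (-0.79 to -0.08), the last from 159 and 118 UMIs. Bbs12 was the 1 gene of the list past the call downward, against 8.54% of all genes, and 0 passed it upward, against 5.42%.

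Partners that recruit or carry the BBSome were split in direction. Of 14 genes, 5 were lower and 9 higher, with a median of 0.05, where 56.8% of all genes were lower. None passed the call, against 8.54% of all genes downward and 5.42% upward. Ift22, which encodes a small GTPase-like protein of the intraflagellar transport train, stood at 14.1 and 16.4 CPM, a log2 ratio of 0.21 (0.11 to 0.32). Ift27, whose protein helps Arl6 to become active in the cilium, stood at 35.4 and 39.2 CPM, a log2 ratio of 0.15 (0.08 to 0.21). Cep131, a centriolar satellite gene, was at 0.12 (0.01 to 0.24). The other genes linked to Bardet-Biedl syndrome had a median of -0.03, with 6 of 11 lower and 0 past the call. These counts are read against the same shares of all genes, and that of lower genes is near its share. Among them Cep290 was at -0.16 (-0.24 to -0.07) and Alms1 at -0.09 (-0.16 to -0.02).

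Receptors and other membrane proteins that the BBSome carries were low or not detected for 5 of 10 genes listed. The other 5 had a mean CPM of at least 1, with a median of -0.12, 3 lower and 2 higher, where 56.8% of all genes were lower. Past the call were 1 downward and 1 upward, against 8.54% and 5.42% of all genes. Smo, the Hedgehog transducer, stood at 66.1 and 61.0 CPM, a log2 ratio of -0.12 (-0.17 to -0.07). Ptch1, the Hedgehog receptor and a target of the pathway, stood at 18.5 and 14.9 CPM, a log2 ratio of -0.31 (-0.41 to -0.21), past the call, and Lepr, named after its values were seen, passed it upward at 0.31 (0.08 to 0.56). Sstr3 and Npy2r, receptors of neuronal cilia, had at most 2 UMIs in a library.

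The pattern of the summed members was set against that of 7604 other genes at a mean of 10 CPM or more over 16 groups of cells, formed by library, 4 disjoint classes and mitotic share below or above the median. Summed member levels ran from 131.2 CPM in Eomes positive cells with a low mitotic share in the dko-labelled library to 178.4 CPM in Irx3 positive cells with a high share in the WT-labelled library. The genes closest by Pearson's r were Manea (0.92), Mospd2 (0.92) and Ndufa1 (0.92), where the 99th percentile of all genes was 0.80. Manea stood at 16.6 and 13.5 CPM in the 2 libraries. The 16 groups share 2 libraries, so the values are a description.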

How the data were processed

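RNA of dissociated single cells was read from the 3′ end in 2 libraries of 10x Genomics chemistry, per the labels' protocols. The values used are raw UMI counts per gene and barcode, as deposited, not normalized. The labels' protocols name Cell Ranger 8.0.1, and the submitters' processing notes name STARsolo, STAR 2.7.9a, Seurat 5.1.0 and mm10, with no role. Which made the matrices is not given in the sources used here. The matrices list 6794880 barcodes each, so no cell filter is in them.

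Counts were summed per library or cell group and scaled to CPM (Python 3.11.15, scipy 1.17.1). Ratios are of CPM + 0.1, except for sums. Intervals are exact Poisson, exact conditional for ratios and Clopper-Pearson for shares. With 1 library per genotype no test was made. Intervals cover counting error only. Doublets were not removed, except as an alternative (scanpy 1.11.5), and TMM scaling came from edgeR 4.0.16. All 10 members, the targeted genes, the class genes and up to 3 genes per list with the largest ratios at a mean CPM of at least 10 are named, with the 3 genes most like the summed members. Of these, 1 listed gene is not reported here. Of the gene IDs, 32235 of 32285 were in GENCODE M21. Depth was 97157331 and 97644169 UMIs in cells. The method was tested on simulated Poisson counts, which hold no variation between cells, cultures or libraries. That simulation covers counting error only and cannot show how far libraries of 1 genotype would differ. Members, lists and rules were chosen with earlier results of these data known.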

Additional observations from a re-analysis of the deposited data

Results flagged for a closer look

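Within Irx3 positive cells that held neither T nor Eomes UMIs, the summed members moved in opposite directions with mitotic share. Between cells below and above the median mitotic share they stood at 157.6 and 178.4 CPM in the WT-labelled library (log2 ratio 0.18, 0.03 to 0.33). The dko-labelled library had 166.6 and 138.2 CPM (log2 ratio -0.27, -0.56 to 0.02). The second value rests on 163 and 148 cells with 209 and 201 member UMIs, and its interval holds 0. The difference was not tested. In the other classes the log2 ratio was above 0 in both libraries, from 0.02 to 0.13.

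Barcodes of at most 100 UMIs, which enter no comparison above, also held member UMIs. Their summed level was 158.7 CPM (148.1 to 169.8) in the WT-labelled library and 142.1 CPM (130.2 to 154.7) in the dko-labelled library. These are 1.00 and 1.02 times the levels in cells. The low barcodes held 5269228 and 3709403 UMIs in all. Ttc8 there had 47 and 18 UMIs, 8.92 and 4.85 CPM.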

How the results depend on the processing

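The equal weights of depth bins, the equal weight of cells and the sum over 7 members are alternatives added after seeing the data. All settings reuse the same 2 libraries and mostly the same UMIs in overlapping cell groups, so the values counted below are not separate checks. The summed log2 ratio of the libraries stayed below 0 in 44 of 44 values over the 6 cell groups, from -0.24 to -0.10, and ran from -0.21 to -0.15 in all cells. In Irx3 positive cells its interval held 0 with a mitochondrial limit of 5% (-0.10, -0.22 to 0.01) and with at least 2 UMIs of Irx3 (-0.17, -0.42 to 0.08). Single-member intervals below 0 numbered 7 of 10, 6 with the 5% limit (without Bbs5), and 5 with TMM scaling or the chromosome 6 and 11 limit (without Bbs2 and Bbs5). The share of all genes, 30.4%, was computed for the main setting only. The median ran from -0.19 to -0.15 in all cells. TMM scaling took the median of all genes from -0.03 to 0.003 and the share of lower genes from 56.8% to 49.3%; it left 10 of 10 members lower and 1 past the call. Again 1 member was past the call with a pseudocount of 1 CPM or equal weights of classes and mitotic bins. Bbs7 ran from -0.34 to -0.23 and Ttc8 from -0.43 to -0.34. With a minimum mean CPM of 10 only 3 members were left, all 3 lower and 0 past the call. With equal weights of depth bins 8 of 10 were lower, with Bbs1 at 0.009 and Bbs4 at 0.015; 78 of 80 values of single members were below 0, and 80 of 80 stayed within the main counting interval. The mitotic contrast in the WT-labelled library was 0.24 with equal weights of depth bins and lay within its interval otherwise. In the dko-labelled library it was 0.07 (-0.01 to 0.15) with the chromosome 6 and 11 limit and 0.07 with equal weights of depth bins. Shares of cells with any member UMI depend on depth: 46.6% and 43.1% at 4000 UMIs, with 258 and 358 shallower cells left out, and 79.0% and 69.4% without thinning. No paired analysis was possible because each genotype has 1 library. At this depth Bbs1 and Bbs9, the members with fewest UMIs, had the widest intervals.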
